A study of Homo sapiens with 56 samples.

Results

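The BCL2 family of apoptosis regulators was followed in 4 cell lines of cutaneous T cell lymphoma given cobomarsen, a synthetic oligonucleotide that binds and blocks miR-155, a microRNA. Cutaneous T cell lymphoma is a cancer of T cells that home to the skin. The rule listed 10 genes and took every probe set whose only gene symbol in the platform annotation is one of them. It found 28 probe sets of 9 genes among 41091 probe sets with 1 gene symbol, which cover 19775 genes. These were 4 probe sets for BCL2, 4 for BCL2L1, 6 for MCL1, 1 for BCL2A1, 7 for BCL2L11, 1 for BMF, 2 for PMAIP1, 2 for BAX and 1 for BAK1. BBC3 is represented by a probe set that also carries other symbols, so it has no values here.

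The BCL2 family decides whether a cell opens the outer membrane of its mitochondria, releases cytochrome c and activates caspases. BAX and BAK1 form the pores. BCL2, BCL2L1 (BCL-XL), MCL1 and BCL2A1 (BFL-1) hold them in check, and the BH3-only proteins BCL2L11 (BIM), BMF, BBC3 (PUMA) and PMAIP1 (NOXA) bind and neutralise these survival proteins. T cells depend on this balance: withdrawal of growth factors or closure of an immune response removes T cells in large part through BIM, and lymphomas often carry high levels of a survival member. Arrays measure messenger RNA only, and several members, MCL1, BIM and NOXA among them, are also controlled at the protein level.

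HuT-102, MJ and MY-LA cells were untreated or treated with cobomarsen, also named MRG-106, and collected at day 4 or day 8. HuT-78 cells were collected at day 8 only, untreated or treated. This gave 14 groups of 4 arrays each, 56 in all. After 96 hours every well was diluted by the factor that returned the untreated wells to their starting density, and fresh medium followed 48 hours later. The series text assigns day 4 to direct and day 8 to downstream targets. The labels give no dose and do not say whether the 4 arrays of a group were grown as separate cultures. The p-values then describe only how far these arrays spread, which may be technical. No wells with a control oligonucleotide were analysed here, so a response to oligonucleotide as such and a response to loss of miR-155 cannot be told apart. Sample numbers in the titles fall into 2 runs, HuT-102 with MJ and HuT-78 with MY-LA, so a difference between lines of separate runs cannot be told apart from the run.

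Of the T cell markers, 11 of 13 reached the median of all array values in every group of HuT-102, MJ and HuT-78, and 8 of 13 did in MY-LA. LCK, CD4 and CD5 were at a signal under 90 in MY-LA, and CD2 was at 44.4 and 44.0 in the groups of HuT-78. EPCAM, an epithelial marker, was at 8926 in untreated HuT-78, where KRT5 and KRT14 stayed under 30, and PAX5, a B cell marker, was at 1148 to 1687 in HuT-102. In MJ at day 4 the 4 myeloid markers summed to 307 to 538 untreated and 985 to 1158 treated; MPO was the main part, while CD14 and LYZ stayed under 40. At day 8 that sum was 276 to 422 untreated and 900 to 975 treated. The summed T cell markers of MJ were also higher with cobomarsen without overlap, at 68905 to 75150 against 51550 to 59902 at day 4 and 62992 to 67390 against 47977 to 52599 at day 8. Their part in the results below was not tested. In HuT-78, cobomarsen arrays 2 to 4 had an upper quartile of signal of 380.2 to 384.6, below the 431.3 of cobomarsen array 1 and the 421.6 to 443.4 of the untreated arrays. The host transcript of miR-155 read 14658 to 24943 on average in untreated HuT-102, MJ and MY-LA and 29.9 in untreated HuT-78.

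The target of the inhibitor is shown first, because its base pairing defines the treatment. Capitals mark the seed, bases 2 to 8, with which a microRNA recognises its targets. The mature sequence is that of RefSeq on GRCh38.p14 (chr21:25573983-25574006, plus strand).

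hsa-miR-155-5p: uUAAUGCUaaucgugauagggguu

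The 250 bases before the start of BCL2L11 (chr2:111120664-111120913, plus strand) and of BMF (chr15:40108880-40109129, minus strand), from RefSeq on GRCh38.p14, are shown because these BH3-only genes had the largest fold changes of the family. Capitals mark matches to GTAAACA, the core recognised by forkhead box O (FOXO) factors, and to GGGCGG, the GC box bound by SP factors. Both strands were searched, and the 2 motifs do not overlap.

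BCL2L11: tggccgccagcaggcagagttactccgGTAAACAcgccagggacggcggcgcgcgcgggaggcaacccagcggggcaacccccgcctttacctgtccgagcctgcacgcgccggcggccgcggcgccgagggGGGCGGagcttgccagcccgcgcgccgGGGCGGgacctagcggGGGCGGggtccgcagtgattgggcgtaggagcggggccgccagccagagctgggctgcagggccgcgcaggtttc

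BMF: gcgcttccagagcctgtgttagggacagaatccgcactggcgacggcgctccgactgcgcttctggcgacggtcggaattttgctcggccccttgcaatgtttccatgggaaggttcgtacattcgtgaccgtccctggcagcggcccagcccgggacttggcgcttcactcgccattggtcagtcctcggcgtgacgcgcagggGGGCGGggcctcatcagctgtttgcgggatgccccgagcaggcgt

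The FOXO core begins 223 bases before the BCL2L11 start, and GC boxes begin 118, 91 and 75 bases before it. BMF has a GC box 45 bases before its start and no FOXO core in these letters. Among 27305 promoter windows of 300 bases, 3.41% hold the FOXO core and 44.6% a GC box. Of the 9 listed genes with a promoter entry, BCL2L11 alone holds the FOXO core, and BCL2L11, BMF, PMAIP1, BAX and BAK1 hold a GC box. A match describes the letters and says nothing of binding in these cells.

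With cobomarsen, BCL2 was higher on its lead probe set alone in HuT-102, MJ and MY-LA on both days. In MY-LA that rise did not pass in a fit on the arrays of the line alone. BAK1 was lower in HuT-102 and MJ on both days and in MY-LA at day 4. Several of the calls in this paragraph rest on 1 probe set or were lost without 1 array, as given below. In HuT-102, BCL2L11, BCL2L1 and PMAIP1 were also higher on both days, and at day 8 BMF was higher while MCL1 and BAX were lower. In MJ, BCL2A1 was lower on both days and BCL2L1 at day 4. In MY-LA, MCL1 was lower on both days, BCL2L1 and BAX at day 4, and BMF and PMAIP1 at day 8. In HuT-78, 1 of 24 tested probe sets passed, of PMAIP1.

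All values below are deposited MAS5 signals on a linear scale, given with the SD over 4 arrays, or differences of log2(signal + 16), cobomarsen minus untreated, given with their SE. A probe set counts as changed when limma's p, adjusted by Benjamini-Hochberg over all probe sets tested in that comparison, lies under 0.05. A probe set was tested where its mean reached the median of all values, a signal of 74.0, and the lead probe set of a gene is the one with the highest mean. In HuT-102 at day 4, 12 of 26 tested member probe sets changed, 11 higher and 1 lower, where 19.4% of all 22076 tested probe sets changed, 9.78% higher and 9.57% lower. At day 8, 19 of 27 changed, 14 higher and 5 lower, against 35.9% of all, 18.1% higher and 17.8% lower. Of the 11 and 14 higher probe sets, 6 and 7 belong to BCL2L11. In MJ, 6 of 21 changed at day 4 (1 higher, 5 lower), against 23.7% of all, 12.5% higher and 11.2% lower. At day 8, 3 of 21 changed in MJ (1 higher, 2 lower), against 28.8%, with 14.4% in each direction. In MY-LA, 9 of 17 changed at day 4 (1 higher, 8 lower), against 24% of all, 12% in each direction. At day 8, 5 of 18 changed in MY-LA (1 higher, 4 lower), against 37.6%, 21.7% higher and 16% lower. In HuT-78, 1 of 24 changed and was higher, against 16% of all, 6.94% higher and 9.09% lower. The members' counts were above the background share in HuT-102 and at day 4 in MY-LA, near it in MJ at day 4, and below it in MJ and MY-LA at day 8. The count in HuT-78 was below its share too, but that share fell from 16% to 0.0143% of 20935 probe sets in a fit on the arrays of HuT-78 alone, where 0 members passed (2 at an unadjusted p under 0.05), and to 0.0938% with cobomarsen array 1 as the only treated array. The median log2 change of the tested members was 0.39 on both days in HuT-102, between -0.23 and -0.04 in MJ and MY-LA and -0.14 in HuT-78, where the median over all tested probe sets lay between -0.07 and 0.03. Probe sets of a gene share a transcript and are not independent.

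**Figure D1:**
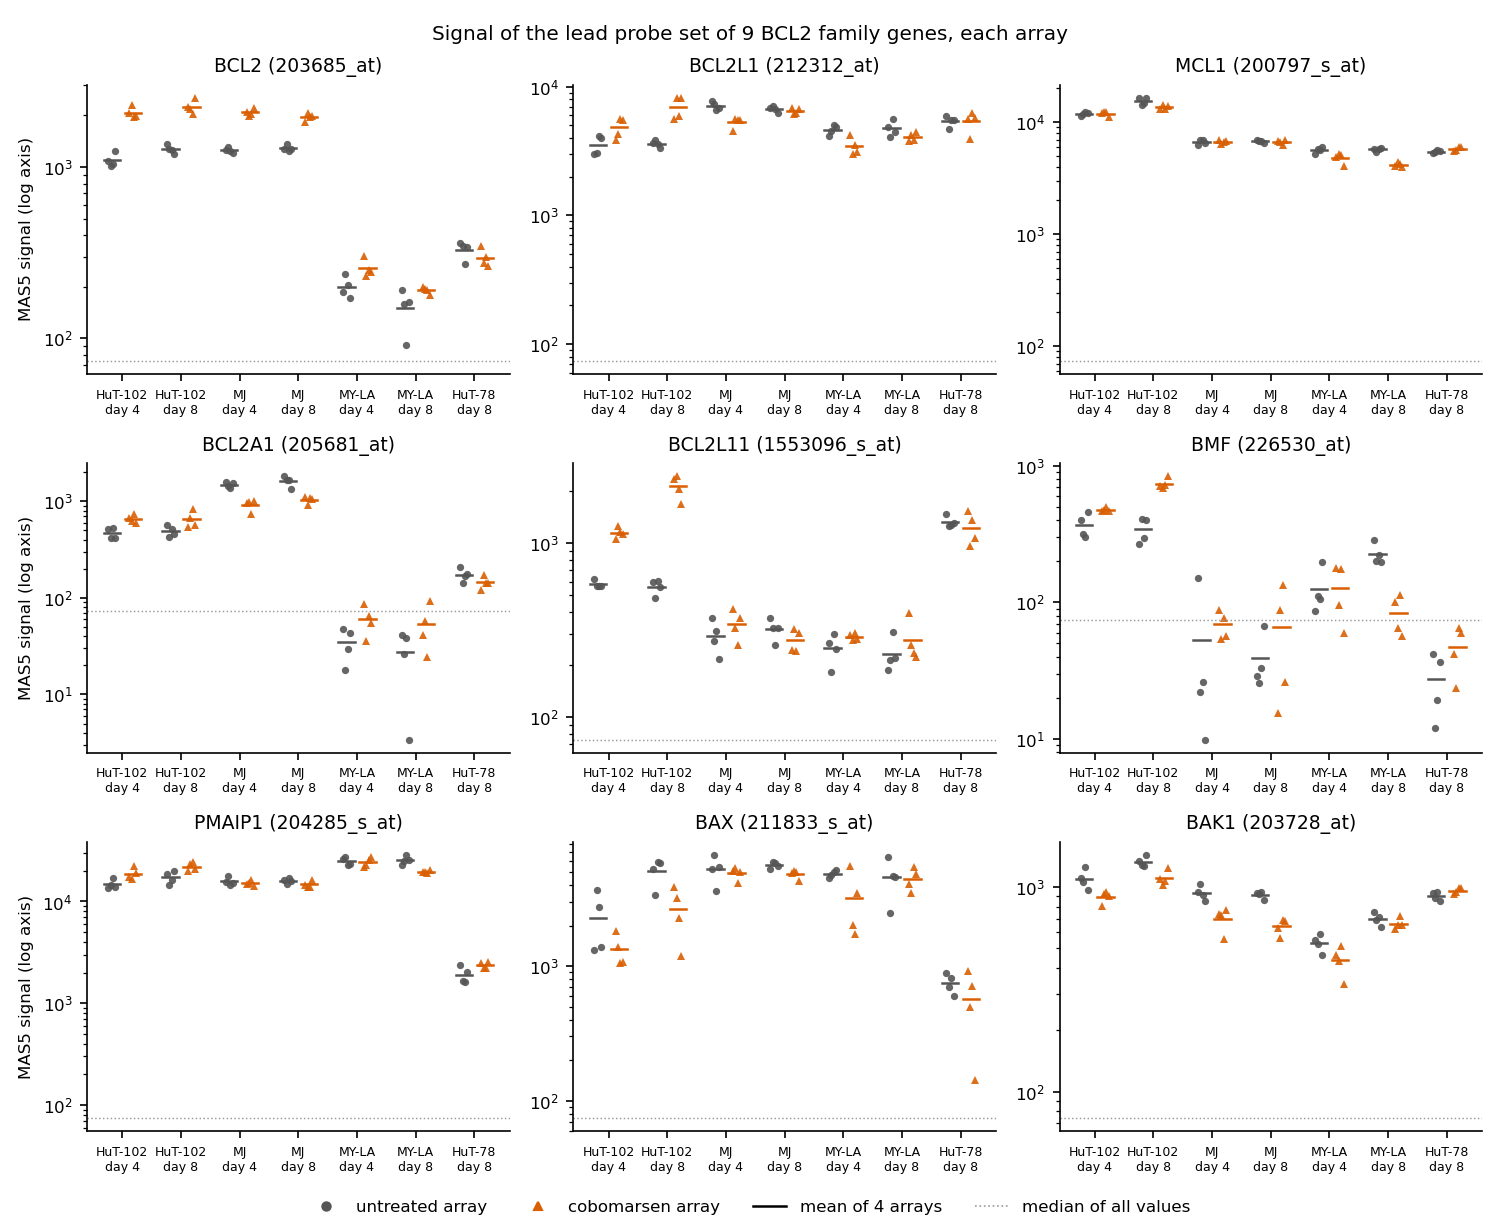
MAS5 signal (log axis) of the lead probe set of 9 BCL2 family genes in each array, with untreated arrays as circles, cobomarsen arrays as triangles, bars for the mean of 4 arrays and a dotted line at the median of all values. Untreated and cobomarsen arrays stand apart for BCL2 and BCL2L11 in HuT-102, while arrays of BAX scatter within a group and BCL2A1 in MY-LA and BMF in MJ and HuT-78 lie near or under the dotted line.

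**Figure D2:**
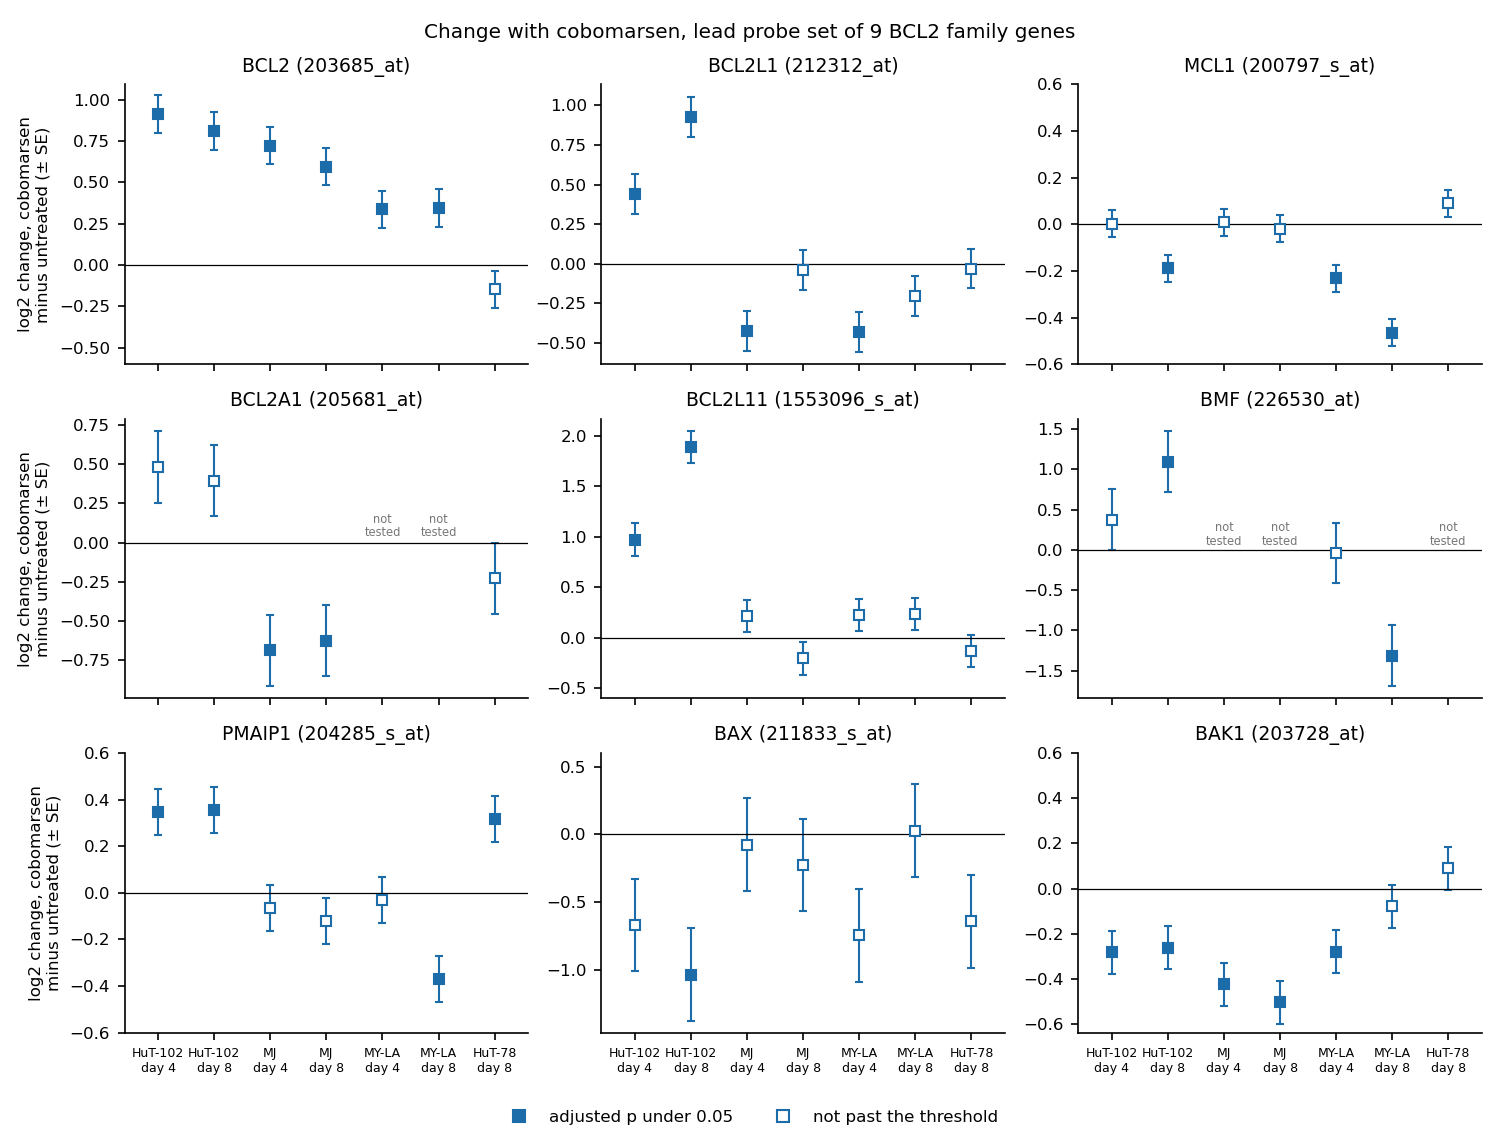
Log2 change with cobomarsen (± SE) of the same 9 lead probe sets in the 7 comparisons of line and day, with filled squares where limma's adjusted p is under 0.05. BCL2L11 stands at 0.97 and 1.89 in HuT-102 and passes in no other line, and BMF and PMAIP1 have opposite signs in HuT-102 and MY-LA at day 8.

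Among the survival genes, BCL2 (chromosome 18, 63123346 to 63320090, GRCh38.p14), the founding member, rose in HuT-102 and MJ on both days. Its lead probe set, 203685_at, read 1089, 1009, 1040.0 and 1238 in untreated HuT-102 at day 4 and 2076, 2286, 1966 and 1968 with cobomarsen. Every treated array exceeded every untreated one, with means of 1094 ± 101 and 2074 ± 150.4. The log2 change was 0.91 ± 0.11 (limma adjusted p = 1.24e-08). At day 8 the HuT-102 arrays read 1366, 1271, 1252 and 1183 untreated and 2236, 2188, 2023 and 2534 treated, again without overlap, a log2 change of 0.81 ± 0.11 (adjusted p = 5.78e-08). In MJ at day 4 the signals were 1249, 1304, 1240.0 and 1212 untreated and 2104, 1978, 2025 and 2203 treated, a log2 change of 0.72 ± 0.11 (adjusted p = 1.55e-06). On this probe set MJ and HuT-102 thus had like levels before and after treatment. MJ at day 8 read 1279, 1358, 1243 and 1268 untreated and 1833, 2070.0, 1948 and 1970.0 treated, a log2 change of 0.60 ± 0.11 (adjusted p = 3.54e-05).

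BCL2 also rose in MY-LA from a lower level, where the mean signal went from 200.5 ± 29.2 to 257 ± 30.7 at day 4 and from 151 ± 42.8 to 191 ± 8.15 at day 8. The log2 changes were 0.34 ± 0.11 and 0.35 ± 0.11 (limma adjusted p = 0.0243 and 0.0131), with overlapping arrays on both days. Both BCL2 calls in MY-LA were lost in a fit on the arrays of that line alone (adjusted p = 0.207 and 0.156). The day 8 call was also lost without untreated array 3 (adjusted p = 0.268), and the day 4 call without cobomarsen array 1 (0.116) or untreated array 1 (0.0732) or 4 (0.105). HuT-78 read 329.6 ± 38.8 untreated and 296 ± 36.1 treated, a log2 difference of -0.15 ± 0.11 that missed the threshold (adjusted p = 0.421). The BCL2 effect was larger than in HuT-78 by 0.96 ± 0.16 in HuT-102, by 0.74 ± 0.16 in MJ and by 0.49 ± 0.16 in MY-LA (adjusted p = 4.29e-06, 0.000286 and 0.0142).

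A second BCL2 probe set, 203684_s_at, did not pass. Over 56 arrays it correlated with the lead probe set at r = 0.905, which includes the differences between lines. In MJ its signal was 574 ± 49.1 untreated and 461 ± 28.0 treated at day 4, and 514 ± 64.4 and 386 ± 5.79 at day 8. The treated arrays lay below the untreated ones without overlap on both days, opposite to the lead probe set, but the log2 differences of -0.31 ± 0.25 and -0.39 ± 0.25 missed the threshold (limma adjusted p = 0.425 and 0.252). In HuT-102 the differences were 0.63 ± 0.25 and 0.34 ± 0.25 (adjusted p = 0.0612 and 0.305). The BCL2 increase therefore rests on 1 of 4 probe sets: 207005_s_at was tested in HuT-102 and MJ and did not pass, and 207004_at was too low for a test in any of the comparisons. Where on the transcript each probe set lies was not analysed here.

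BCL2L1 (chromosome 20, 31664452 to 31723963), which encodes the survival protein BCL-XL, rose in HuT-102 and fell in MJ and MY-LA at day 4. The lead probe set, 212312_at, read 3675, 3835, 3618 and 3339 in untreated HuT-102 at day 8 and 5582, 8224, 5975 and 8190.0 with cobomarsen. All treated arrays were higher, and the log2 change was 0.93 ± 0.12 (limma adjusted p = 2.25e-08). At day 4 the arrays read 2994, 3075, 4138 and 3979 untreated and 3880.0, 4297, 5621 and 5534 treated, which overlap, with a log2 change of 0.44 ± 0.12 (adjusted p = 0.00758). That call was lost without untreated array 1 (adjusted p = 0.0503) or cobomarsen array 3 (0.0505). Probe set 206665_s_at rose at day 8 by 1.17 ± 0.13 and 215037_s_at by 1.11 ± 0.14 (adjusted p = 2.76e-10 and 7.43e-09), so 3 of 4 BCL2L1 probe sets rose. Their arrays read 698, 535, 670.4 and 615 untreated against 1477, 1771, 1370.0 and 1152 treated for 206665_s_at, and 719.9, 687, 661 and 689.6 against 1554, 1936, 1316 and 1288 for 215037_s_at. At day 4 the changes were 0.40 ± 0.13 and 0.28 ± 0.14 (adjusted p = 0.0241 and 0.173). The first of these calls was lost without untreated array 1 (0.0979) or 4 (0.0744) or cobomarsen array 2 (0.0607).

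In MJ at day 4 the mean signal of BCL2L1 was 7127 ± 526 untreated and 5306 ± 508 treated without overlap of arrays, a log2 change of -0.43 ± 0.12 (limma adjusted p = 0.00812). The 2 other tested probe sets fell as well, by 0.48 and 0.45 on the log2 scale (adjusted p = 0.00555 and 0.0161). The lead call was lost without cobomarsen array 1 (adjusted p = 0.0505) and that of 215037_s_at without untreated array 1 (0.0734). At day 8 no BCL2L1 probe set passed in MJ, with log2 differences from -0.04 to 0.23. MY-LA at day 4 went from 4635 ± 391 to 3456 ± 552, a log2 change of -0.43 ± 0.12 (adjusted p = 0.00789) with overlap. Probe set 206665_s_at read 832, 774, 952 and 966 in untreated MY-LA and 757, 493, 653 and 435 treated without overlap, a log2 change of -0.61 ± 0.13 (adjusted p = 0.000447). Probe set 215037_s_at read 863, 891, 945 and 943 against 869.8, 438, 614 and 511, a log2 change of -0.61 ± 0.14 (adjusted p = 0.000889), with cobomarsen array 1 among the untreated values.

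Cobomarsen arrays 2 to 4 of MY-LA at day 4 were thus the low ones for BCL2L1. At day 8 the 3 probe sets of MY-LA lay between -0.34 and -0.20 on the log2 scale and none passed, and in HuT-78 none of 4 tested probe sets passed. The effect of cobomarsen on the lead probe set of BCL2L1 differed between lines. At day 8 it was higher in HuT-102 than in MJ by 0.97 ± 0.18, than in MY-LA by 1.13 ± 0.18 and than in HuT-78 by 0.96 ± 0.18 (limma adjusted p = 2.66e-05, 8.03e-07 and 2.28e-05). At day 4 the difference from both MJ and MY-LA was 0.87 (adjusted p = 0.000432 and 0.00033). Within the run that holds HuT-102 and MJ, the lines went in opposite directions at day 4.

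MCL1 (chromosome 1, 150574558 to 150579610), a short-lived survival protein on which many lymphoid cells depend, fell in MY-LA on both days. Its lead probe set, 200797_s_at, read 5780.0, 5456, 5779 and 5919 in untreated MY-LA at day 8 and 4055, 4367, 4194 and 3984 with cobomarsen. The groups do not overlap and the log2 change was -0.46 ± 0.06 (limma adjusted p = 3.63e-09). At day 4 the arrays read 5247, 5704, 5698 and 5966 and 4891, 5231, 5123 and 4088, a log2 change of -0.23 ± 0.06 (adjusted p = 0.0021). The day 8 call was that of the lead probe set alone: 200796_s_at and 200798_x_at stood at 0.06 ± 0.15 and 0.00 ± 0.08 (adjusted p = 0.776 and 0.981). At day 4, in contrast, 200796_s_at read 616, 609, 699 and 646 untreated and 433, 373, 355 and 388 treated, a log2 change of -0.71 ± 0.15 (adjusted p = 0.00018). Probe set 200798_x_at fell at day 4 by 0.28 on the log2 scale (adjusted p = 0.00992), a call lost without cobomarsen array 2 (adjusted p = 0.103). So 3 of 5 tested MCL1 probe sets fell in MY-LA at day 4 and 1 of 6 at day 8.

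In HuT-102 at day 8 the MCL1 arrays read 16401, 14310.0, 14844 and 16547 untreated and 12977, 14294, 13200.0 and 13982 treated, a log2 change of -0.19 ± 0.06 (limma adjusted p = 0.00808). Untreated MCL1 itself rose between the days in HuT-102, from 11903 ± 411 at day 4 to 15526 ± 1118 at day 8, a log2 change of 0.38 ± 0.06 (adjusted p = 5.76e-06). Treated cells stood at 11927 ± 529.8 at day 4 and 13613 ± 626 at day 8. No MCL1 probe set passed in MJ on either day, in HuT-102 at day 4 or in HuT-78. The day 8 effect on the lead probe set was higher in MJ than in MY-LA by 0.45 ± 0.08 (adjusted p = 2.29e-05).

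**Figure D3:**
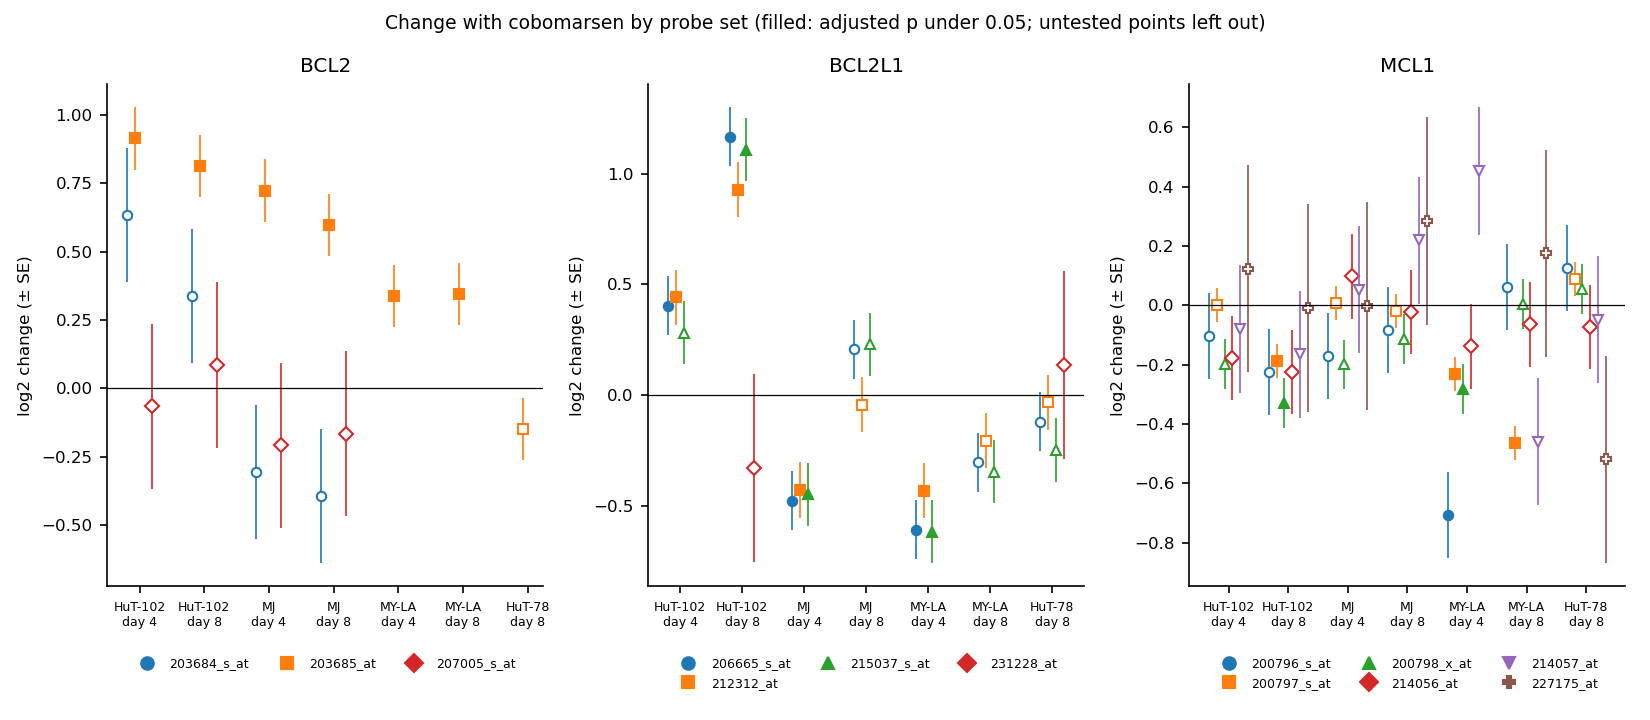
Log2 change with cobomarsen (± SE) of each tested probe set of BCL2, BCL2L1 and MCL1 in the 7 comparisons, filled where limma's adjusted p is under 0.05. The 3 probe sets of BCL2L1 that were tested throughout move together, while 203685_at and 203684_s_at of BCL2 stand on opposite sides of 0 in MJ.

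BCL2A1 (chromosome 15, 79960892 to 79971196), a survival protein encoded by a target gene of NF-kB, fell in MJ on both days. Its probe set, 205681_at, read 1581, 1425, 1380.0 and 1543 in untreated MJ at day 4 and 964, 982, 739 and 997 with cobomarsen, without overlap. The log2 change was -0.69 ± 0.23 (limma adjusted p = 0.0205). At day 8 the arrays read 1813, 1680.0, 1650.0 and 1341 and 1120.0, 912, 1080.0 and 1052, a log2 change of -0.63 ± 0.23 (adjusted p = 0.0304). Both BCL2A1 calls were near the threshold. With log2(signal + 1) they were lost (adjusted p = 0.174 and 0.204). The day 4 call was lost without untreated array 1 (0.0515) or cobomarsen array 3 (0.0832), and the day 8 call without untreated array 1, 2 or 3 or cobomarsen array 2 or 4 (0.0515 to 0.0883). HuT-102 arrays went the other way, from 469.9 ± 57.9 to 661 ± 64.6 at day 4 without overlap, but the log2 differences of 0.48 ± 0.23 and 0.39 ± 0.23 missed the threshold (adjusted p = 0.136 and 0.182). The difference between the HuT-102 and MJ effects was 1.17 ± 0.32 at day 4 and 1.02 ± 0.32 at day 8 (adjusted p = 0.0114 and 0.0151). In MY-LA BCL2A1 lay under the median of all values, at 34.9 and 60.2 at day 4 and 27.3 and 54.0 at day 8, and was not tested.

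Of the BH3-only genes, BCL2L11 (chromosome 2, 111120914 to 111168445), which encodes BIM, rose in HuT-102 and passed in no other line. Its lead probe set, 1553096_s_at, read 620.4, 565, 567 and 564 in untreated HuT-102 at day 4 and 1062, 1250.0, 1166 and 1128 with cobomarsen. The log2 change was 0.97 ± 0.16 (limma adjusted p = 5.91e-06). At day 8 the arrays read 595, 482, 605 and 557 untreated and 2340.0, 2425, 2060.0 and 1685 treated, a log2 change of 1.89 ± 0.16 (adjusted p = 3.22e-14). Untreated arrays covered a like range on both days, while every treated array of day 8 lay above every treated array of day 4. The effect at day 8 exceeded that at day 4 by 0.92 ± 0.23 (adjusted p = 0.0072).

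Across the gene, 6 of 7 BCL2L11 probe sets rose in HuT-102 at day 4 and 7 of 7 at day 8. The largest signals came from 225606_at, which read 952, 914, 974 and 1099 untreated and 3012, 3538, 2803 and 2999 treated at day 4. Its log2 change was 1.63 ± 0.31 (limma adjusted p = 7.78e-05). At day 8 it read 1120.0, 1072, 1113 and 1175 and 7661, 7087, 6202 and 7717, a 6.30-fold difference on the log2(signal + 16) scale with a log2 change of 2.66 ± 0.31 (adjusted p = 7.19e-10). Probe set 1555372_at had the largest change at day 8 among those whose groups both reached the median, from 419, 455, 359 and 526 to 3540.0, 2664, 3844 and 4073, a log2 change of 2.95 ± 0.38 (adjusted p = 5.47e-09). Probe set 1558143_a_at went from 755 ± 47.0 to 3922 ± 268 at day 8 (log2 change 2.35 ± 0.42, adjusted p = 1.01e-05), and 222343_at from 143 ± 12.1 to 670.4 ± 69.3 (2.10 ± 0.31, adjusted p = 1.8e-07). Probe set 208536_s_at was under the median in untreated HuT-102 at day 8, at 45.7, 56.1, 99.2 and 70.5, and read 569, 609.7, 562 and 381 with cobomarsen. The smallest change was that of 1553088_a_at, with 1.08 ± 0.23 at day 8 (adjusted p = 0.000119) and 0.54 ± 0.23 at day 4, where it missed the threshold (adjusted p = 0.0905). Of the day 4 calls, that of 1558143_a_at was lost without untreated array 2 (adjusted p = 0.0521) and that of 208536_s_at without cobomarsen array 2 (0.0596). With log2(signal + 1) both of those calls were lost (0.14 and 0.29).

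**Figure D4:**
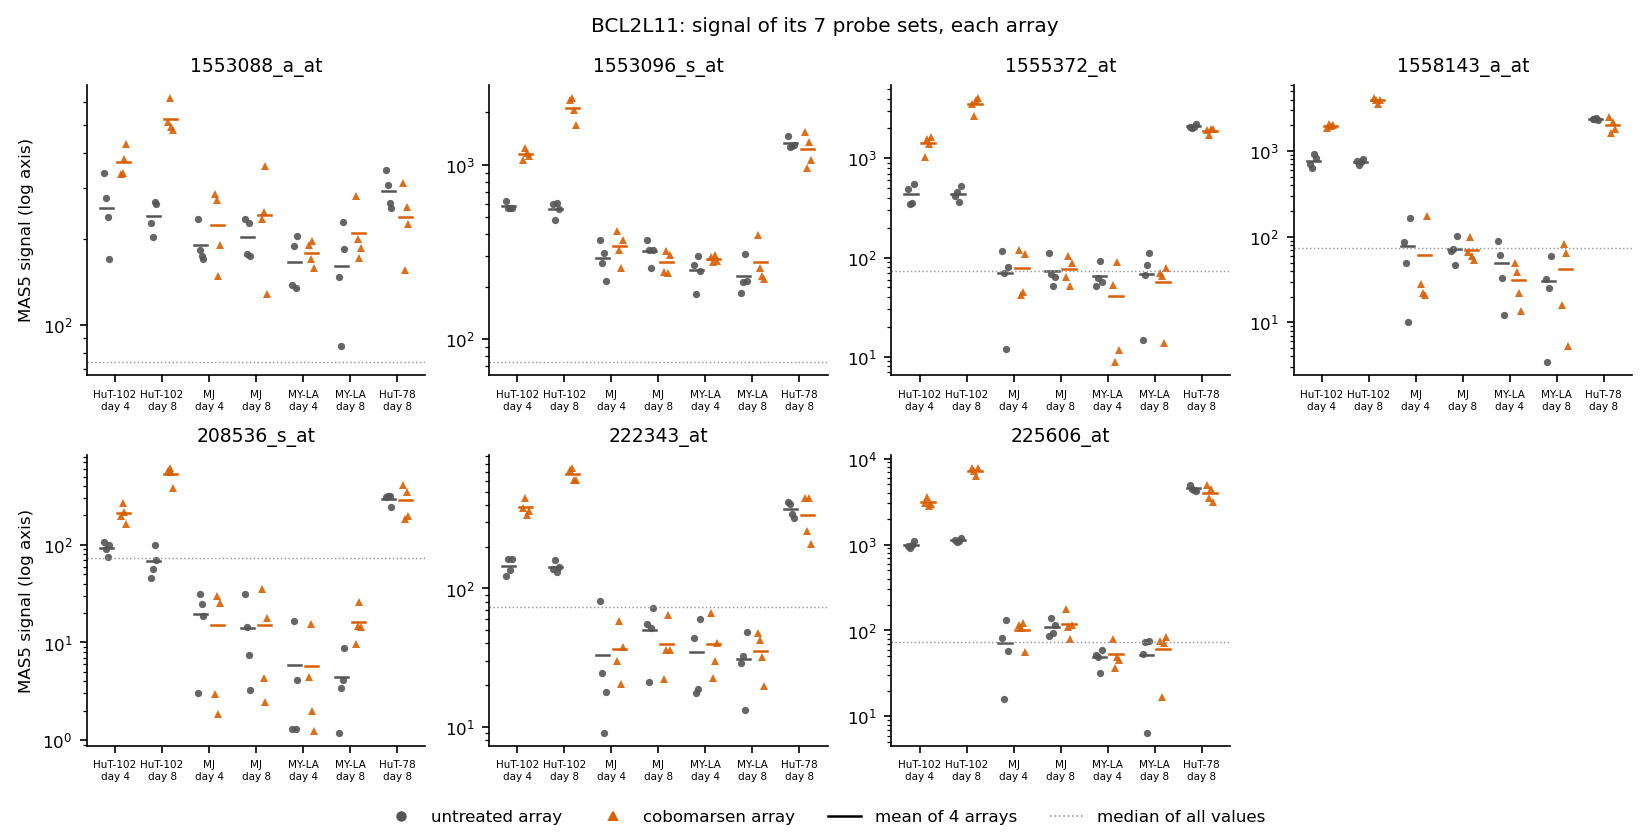
MAS5 signal (log axis) of the 7 BCL2L11 probe sets in each array, by line and day, with untreated arrays as circles, cobomarsen arrays as triangles and bars for group means. In HuT-102 at day 8 all treated arrays lie above all untreated arrays for each of the 7 probe sets. In HuT-78 both groups are high and overlap, except for 1555372_at, where the treated arrays lie below the untreated ones.

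HuT-78 carried the highest untreated BCL2L11. The lead probe set read 1470.0, 1260.0, 1276 and 1302 untreated and 1541, 958, 1354 and 1069 treated, and 225606_at read 4496 ± 333 and 4011 ± 845. None of its 7 tested probe sets passed, with log2 differences between -0.32 and -0.12. In MJ and MY-LA most BCL2L11 probe sets lay near or under the median, with 225606_at at 71.5 and 48.5 in untreated cells at day 4. The lead probe set stood in MJ at 320.5 ± 47.2 untreated and 276 ± 41.1 treated at day 8, and in MY-LA at 230.3 ± 52.8 and 277 ± 81.3. The limma log2 differences of -0.20 ± 0.16 and 0.24 ± 0.16 missed the threshold (adjusted p = 0.383 and 0.255). The day 8 effect in HuT-102 exceeded that in MJ by 2.09 ± 0.23, that in MY-LA by 1.65 ± 0.23 and that in HuT-78 by 2.02 ± 0.23 (adjusted p = 1.89e-10, 4.88e-08 and 4.44e-10). In these bulk samples, fewer cells with a transcript and less transcript per cell cannot be told apart.

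BMF (chromosome 15, 40087890 to 40108879), a BH3-only protein held on the cytoskeleton until released, went in opposite directions in HuT-102 and MY-LA at day 8. Its probe set, 226530_at, read 268, 406, 295 and 404 in untreated HuT-102 and 713, 692, 726 and 839 with cobomarsen, without overlap. The log2 change was 1.10 ± 0.37 (limma adjusted p = 0.0174). That call was lost without untreated array 1 (adjusted p = 0.0554) and with log2(signal + 1) (0.0714). In MY-LA at day 8 the arrays read 286, 202, 224 and 197 untreated and 100.2, 64.4, 114 and 57.0 treated, a log2 change of -1.31 ± 0.37 (adjusted p = 0.00412). The difference between these effects was 2.41 ± 0.53 (adjusted p = 0.000258). At day 4 BMF did not pass in HuT-102 (368 ± 74.1 untreated, 476 ± 14.5 treated, adjusted p = 0.552) or in MY-LA (126 ± 49.4 and 127 ± 58.8, adjusted p = 0.962). In MJ and HuT-78 it lay under the median and was not tested.

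PMAIP1 (chromosome 18, 59899996 to 59904305), which encodes NOXA, the BH3-only protein that neutralises MCL1, showed the same split at day 8 with smaller changes. Probe set 204285_s_at read 18466, 14562, 16241 and 19825 in untreated HuT-102 at day 8 and 19906, 23189, 24199 and 20892 treated, a log2 change of 0.36 ± 0.10 (limma adjusted p = 0.00314). At day 4 it read 13674, 14479, 16924 and 13775 and 17322, 16519, 22285 and 18966, a log2 change of 0.35 ± 0.10 (adjusted p = 0.00812) with overlap, a call lost without cobomarsen array 3 (adjusted p = 0.0728). The second probe set, 204286_s_at, rose by 0.54 and 0.51 on the 2 days (adjusted p = 0.00367 and 0.00293). In MY-LA at day 8 that probe set read 23486, 25508, 26951 and 25847 untreated and 15735, 15582, 15466 and 16579 treated. The arrays are tightly grouped and apart, and the log2 change was -0.68 ± 0.14 (adjusted p = 9.9e-05), with -0.37 ± 0.10 on 204285_s_at (adjusted p = 0.00218). MY-LA did not pass at day 4 on either probe set, and the difference between its days was -0.83 ± 0.20 on 204286_s_at (adjusted p = 0.00283).

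In HuT-78, PMAIP1 gave the 1 member call of that line: 204285_s_at read 2385, 1652, 1609 and 2010.0 untreated and 2484, 2196, 2221 and 2537 treated, with overlap and a log2 change of 0.32 ± 0.10 (limma adjusted p = 0.0226). Probe set 204286_s_at differed there the other way, by -0.23 ± 0.14 (adjusted p = 0.276). The call was lost without untreated array 2 (0.112) or 3 (0.135) or cobomarsen array 4 (0.0938) and on the arrays of HuT-78 alone (0.206). With the untreated arrays set against cobomarsen array 1 alone, whose upper quartile of signal is that of the untreated arrays, the log2 difference in PMAIP1 was 0.39 and did not pass.

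The effector BAX (chromosome 19, 48954875 to 48961798), which forms pores once activated, varied so much between arrays of 1 group that few differences could be told from the spread. Probe set 211833_s_at read 5248, 3358, 5905 and 5794 in untreated HuT-102 at day 8 and 3895, 3202, 2270.0 and 1186 treated. The arrays overlap, and the log2 change was -1.04 ± 0.34 (limma adjusted p = 0.0137). Without cobomarsen array 4 the change was -0.70 and the call was lost (adjusted p = 0.13). Probe set 208478_s_at gave -1.04 ± 0.37 (adjusted p = 0.0223), which was lost without that array (0.207) or untreated array 3 (0.0631) or 4 (0.0598). Untreated BAX itself was higher at day 8 than at day 4 in HuT-102, where the day 4 arrays read 1325, 3691, 2762 and 1392, a log2 change of 1.24 ± 0.34 (adjusted p = 0.0152). That call was lost without untreated array 1 (0.0982) or 4 (0.0739) of day 4 or untreated array 3 (0.0544) or 4 (0.0607) of day 8. In MY-LA at day 4, 208478_s_at read 3460.0, 3894, 4363 and 4179 untreated and 4000.0, 1138, 1165 and 3001 treated, with overlap, a log2 change of -0.98 ± 0.37 (adjusted p = 0.0457). Leaving out any of 6 arrays, cobomarsen 2 or 3 or any untreated array, ended it (0.059 to 0.2), and 211833_s_at did not pass (adjusted p = 0.108). In HuT-78, where 1 treated array read 142 against 499 to 925 for the other treated arrays, BAX did not pass.

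The SD of BAX within groups was 0.57 on the log2 scale for 208478_s_at and 0.53 for 211833_s_at. Among 2419 and 2022 probe sets of like level, the medians were 0.127 and 0.122, and 0 and 1 of them had an SD as large. Both probe sets deviated from their group means together, at r = 0.982 over 56 arrays. The deviations of 211833_s_at had r = -0.37 with the 3'/5' ratio of GAPDH, r = -0.18 with that of ACTB and r = 0.05 with the upper quartile of signal of the array. The part of these in the spread of BAX was not tested.

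**Figure D5:**
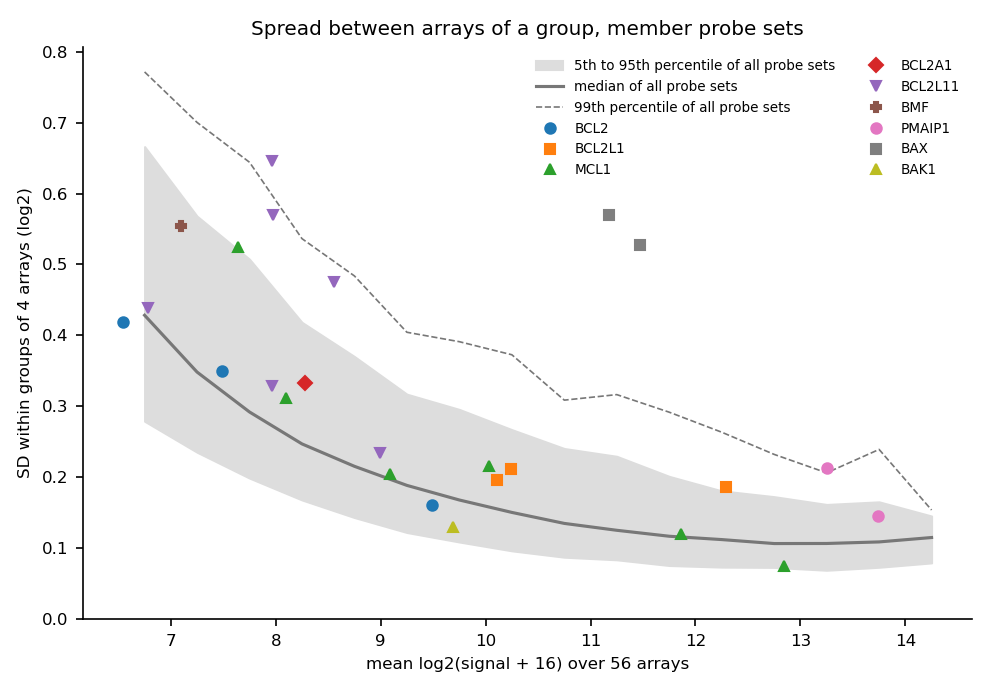
SD within groups of 4 arrays (log2) against mean log2(signal + 16) over 56 arrays for member probe sets, with the 5th to 95th percentile of all probe sets as a band, their median as a line and their 99th percentile as a dashed line. The 2 BAX probe sets, at 0.57 and 0.53, lie far above the dashed line at their level.

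BAK1 (chromosome 6, 33572552 to 33580276), the second effector, fell in 5 comparisons by small amounts. Its probe set, 203728_at, read 929, 920.5, 943 and 867 in untreated MJ at day 8 and 633, 565, 689 and 682 with cobomarsen. No treated array reached the untreated range, and the log2 change was -0.50 ± 0.10 (limma adjusted p = 3.24e-05). In MJ at day 4 the mean went from 937 ± 77.7 to 698 ± 96.7 without overlap, a log2 change of -0.42 ± 0.10 (adjusted p = 0.000525). HuT-102 fell from 1092 ± 119 to 893 ± 58.9 at day 4 and from 1328 ± 75.8 to 1106 ± 89.5 at day 8, without overlap. The log2 changes were -0.28 ± 0.10 and -0.26 ± 0.10 (limma adjusted p = 0.0295 and 0.0264). MY-LA at day 4 fell from 532 ± 52.5 to 439 ± 75.7 with overlap, a log2 change of -0.28 ± 0.10 (adjusted p = 0.0264). The 2 MJ calls held without any 1 array, and the other 3 did not. The day 4 call in HuT-102 was lost without untreated array 1 (0.0633) or 3 (0.15) or cobomarsen array 1 (0.113). Its day 8 call was lost without untreated array 1 (0.0514) or 4 (0.0886) or cobomarsen array 2 (0.0858) or 3 (0.0623). The MY-LA call was lost without untreated array 1 (0.0676) or 3 (0.107) or cobomarsen array 4 (0.24) and on the arrays of MY-LA alone (0.0832). MY-LA at day 8 and HuT-78 did not pass, with -0.08 ± 0.10 and 0.09 ± 0.10 (adjusted p = 0.56 and 0.588). The day 8 effect in MJ minus that in HuT-78 was -0.59 ± 0.14 (adjusted p = 0.000547).

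Between the days the effect of cobomarsen differed for some member probe sets of HuT-102 and MY-LA in the main fit. On the arrays of each line alone some of MJ passed as well, as given at the end. In HuT-102 it differed for 4 of 27 tested member probe sets, against a background of 5.26%, and was larger at day 8 in each: 1553096_s_at and 208536_s_at of BCL2L11 and 206665_s_at and 215037_s_at of BCL2L1, the last pair by 0.76 and 0.83 (limma adjusted p = 0.00684 and 0.00635). Of these, 208536_s_at did not pass without untreated array 1 of day 8 (0.0515). In MJ 0 of 21 passed, with 3 at an unadjusted p under 0.05 and a background of 0.669%. In MY-LA 5 of 18 passed, against 14.7%: 4 probe sets of MCL1, with both signs, and 204286_s_at of PMAIP1. Among the MCL1 probe sets of MY-LA, 200797_s_at, 214057_at and 227175_at lost the call on the arrays of that line alone (0.133, 0.142 and 0.0800) and each in the absence of several single arrays (0.0555 to 0.116, 0.0507 to 0.125 and 0.0503 to 0.115). Only the difference of 0.77 ± 0.21 for 200796_s_at held among them. Without treatment, 4 of 26 member probe sets differed between days in HuT-102 (background 7.13%), 2 of MCL1 and 2 of BAX, 0 of 21 in MJ (1 at an unadjusted p under 0.05, background 1.22%) and 2 of 18 in MY-LA (background 10.2%). In MY-LA those were BAK1, at 0.39 ± 0.10, and BCL2, at -0.40 ± 0.11 (adjusted p = 0.0153), a call lost without untreated array 2 of day 4 (0.0969) or untreated array 3 of day 8 (0.239).

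Across lines, limma's F-test found the effect to differ for 14 of 24 tested member probe sets at day 4, against 22.4% of all, and for 18 of 24 at day 8, against 58.1%. With HuT-78 left out, a fit added after seeing the data, the day 8 share of all was 46.8%. Of 17 lead results called in the F-tests on day 8 effects and levels, 16 kept the call there. All contrasts with the HuT-78 effect include its cobomarsen arrays 2 to 4, whose upper quartile of signal was low. The part of those arrays was not tested. For the lead probe sets of PMAIP1 and MCL1 the extremes at day 8 were HuT-102 against MY-LA, a difference of 0.73 ± 0.14 (adjusted p = 3.53e-05), and MY-LA against HuT-78, a difference of -0.55 ± 0.08 (adjusted p = 3.95e-07). HuT-102 and MJ, which share a run, also differed for BCL2L11, BCL2L1 and BCL2A1 as given above.

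In untreated cells at day 8 the levels of the members differed between lines, as did those of most probe sets. All 25 tested member probe sets differed between the lines in limma's F-test, where 89.2% of all did. A difference of HuT-102 or MJ from HuT-78 or MY-LA cannot be told apart from the run. Levels here and in the next paragraph are those of the lead probe set of each gene, unless another is named. BCL2 was at 1287 in MJ and 1268 in HuT-102, which did not differ beyond their spread (limma adjusted p = 0.892), then 329.6 in HuT-78 and 151 in MY-LA. Its probe set 203684_s_at was higher in MJ than in HuT-102, at 514 against 269, by 0.90 ± 0.25 on the log2 scale (limma adjusted p = 0.00159). For that pair 207005_s_at did not pass (0.189). BCL2L1 was highest in MJ at 6682, followed by HuT-78 at 5429 and MY-LA at 4739.8, which did not differ beyond their spread (0.148), and HuT-102 at 3617. Probe sets 206665_s_at and 215037_s_at kept this order. There HuT-78 exceeded MY-LA by 0.33 ± 0.13 and 0.41 ± 0.14 on the log2 scale (limma adjusted p = 0.0229 and 0.00917). The weaker 231228_at was highest in HuT-78, at 228. MCL1 was highest in HuT-102 at 15526, then MJ at 6729, with MY-LA at 5734 and HuT-78 at 5447 not differing beyond their spread (0.252). On 200798_x_at, in contrast, HuT-78 was higher than MY-LA, at 3304 against 2331, by 0.50 ± 0.08 on the log2 scale (limma adjusted p = 5.43e-07). The remaining MCL1 probe sets did not pass for that pair (0.332 to 0.797). BCL2A1 ran from 1621 in MJ through 489 in HuT-102 and 173 in HuT-78 to 27.3 in MY-LA.

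Among the death-promoting genes, untreated BCL2L11 was highest in HuT-78 at 1327, then HuT-102 at 559.8, MJ at 320.5 and MY-LA at 230.3. On this lead probe set each step passed the threshold. Probe set 1553088_a_at had the same order, but no step passed (limma adjusted p = 0.281, 0.411 and 0.156). On the remaining probe sets the first step passed, the second passed where tested, and the step from MJ to MY-LA lay too low for a test. BMF was at 343 in HuT-102 and 227 in MY-LA, a difference within their spread (limma adjusted p = 0.195), and at 38.8 and 27.4 in MJ and HuT-78. PMAIP1 was at 25495 in MY-LA, 17274 in HuT-102 and 15973 in MJ, the latter pair within their spread (0.394), and at 1914 in HuT-78. BAX showed the same low level in HuT-78, at 749.7, against 5609, 5076 and 4552 in MJ, HuT-102 and MY-LA, neighbours whose differences missed the threshold. BAK1 was at 1328 in HuT-102, 915 in MJ and 899.8 in HuT-78, the latter pair within their spread (0.84), and 699 in MY-LA. HuT-78 thus held the highest BCL2L11 beside the lowest PMAIP1 and BAX. Signals compare lines for 1 probe set and not genes with each other.

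Lists of other genes of the pathway, 1 lead probe set a gene, moved as follows. Of 16 other family members, 9 to 11 were tested in each comparison. Those that rose and fell numbered 1 and 0 in HuT-102 on both days, 1 and 1 in MJ on both days, 0 and 1 and then 0 and 3 in MY-LA, and 3 and 0 in HuT-78. The share of all lead probe sets called was 22%, 39.4%, 26.5%, 32.8%, 25.8%, 41.2% and 20.2% in HuT-102, MJ and MY-LA at days 4 and 8 and in HuT-78. The BNIP genes, which include mitophagy receptors, had the largest changes of this list, in MY-LA at day 8: BNIP3 fell by 1.54, BNIP3L by 1.06 and BNIP1 by 0.94 on the log2 scale. BNIP1 also fell by 0.65 and 0.64 in MJ and by 0.60 in MY-LA at day 4, and BNIP3L rose by 0.48 and 0.50 in MJ and by 0.42 in HuT-102 at day 4. In HuT-78 the BH3-only genes BIK and BAD were higher by 0.79 and 0.50, and BNIP1 by 0.45. None of the 15 HuT-78 calls in the pathway lists passed on the arrays of that line alone (limma adjusted p = 0.17 to 0.251) or with cobomarsen array 1 as the only treated array.

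Of the genes for mitochondrial partners, the apoptosome and caspases, 17 or 18 of 21 were tested. They rose and fell in numbers of 1 and 3 and then 4 and 6 in HuT-102, 5 and 3 and then 4 and 3 in MJ, 2 and 0 and then 1 and 6 in MY-LA, and 3 and 3 in HuT-78. Of all lead probe sets, 22% and 39.4% were called in HuT-102, 26.5% and 32.8% in MJ, 25.8% and 41.2% in MY-LA and 20.2% in HuT-78. In HuT-102, BIRC5 (survivin), an inhibitor of apoptosis needed for cell division, fell by 0.36 and 0.87, and CASP2 by 0.36 and 0.53, while CASP8, the initiator caspase of death receptors, and APAF1, the scaffold of the apoptosome, fell at day 8 by 0.37 and 0.46. BIRC5 also fell in MJ at day 8, by 0.45. In MJ, CASP9, the initiator caspase of the apoptosome, rose by 0.59 and 0.76 and APAF1 by 0.51 and 0.48, while XIAP, a caspase inhibitor, rose by 0.46 and 0.56. In HuT-78, XIAP, CASP8 and APAF1 were lower by 0.63, 0.50 and 0.45 and BIRC5 was higher by 0.36, calls that did not pass on that line's own arrays. In MY-LA at day 8, CASP2 rose by 0.59 and CASP8 fell by 0.39.

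Of 26 known regulators of the members, 22 or 23 were tested. The numbers that rose and fell were 5 and 1 and then 8 and 5 in HuT-102, 4 and 7 and then 4 and 8 in MJ, 4 and 5 and then 9 and 3 in MY-LA, and 1 and 5 in HuT-78. The shares called of all lead probe sets were 22% and 39.4%, 26.5% and 32.8%, 25.8% and 41.2%, and 20.2% in the same order. FOXO3, a forkhead factor that can switch on BCL2L11 and BBC3, went in HuT-102 from 1125 ± 105 to 2422 ± 170 at day 4 and from 1054 ± 54.2 to 3331 ± 183 at day 8. Its log2 changes were 1.10 ± 0.07 and 1.64 ± 0.07 (limma adjusted p = 1.35e-18 and 3.39e-26), the largest of the list in that line. DDIT3 rose there by 0.63 and 0.42, and MDM2 by 0.59 and 0.83. RELA rose by 0.45 and 0.60 in HuT-102, by 0.50 and 0.60 in MJ and by 0.47 in MY-LA at day 8. In HuT-78 RELA was lower by 0.50, a call that did not pass on that line's own arrays. FOXO3 also rose in MJ, by 0.64 and 0.73, and in MY-LA, by 0.47 and 0.29, where BCL2L11 did not pass, and it was at 3809 untreated and 3789 treated in HuT-78. FOXO1 rose at day 8 by 0.94 in HuT-102 and by 1.01 in MY-LA, where it had fallen by 0.36 at day 4, and it fell by 0.42 and 1.05 in MJ. STAT3, an activator of BCL2L1 and MCL1 transcription, fell in MJ by 0.97 and 1.46 and in MY-LA by 0.46 and 0.41. In HuT-102 STAT3 fell by 0.33 and 0.59. The part of FOXO3 in the changes of BCL2L11, and of STAT3 in those of BCL2L1 and MCL1, was not tested. STAT5B fell in MY-LA by 0.58 and 0.59 and rose in MJ by 0.39 and 0.31. DYNLL2, a dynein light chain that binds BMF, was lower by 1.04 in HuT-78, with signals of 5615 ± 827 untreated and 2846 ± 1185 treated, and did not pass on that line's own arrays. DYNLL2 fell by 0.52 in HuT-102 and rose by 0.40 in MY-LA at day 8. For each gene of these lists named by the rule, calls in other comparisons were added after the values were seen.

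The genes whose 14 group means were most like those of each member, of 11708 compared, are given as a description, and much of the likeness comes from the differences between lines and runs. BCL2L11 was followed by GABARAPL1, an autophagy gene (r = 0.961), PHACTR2 (0.943) and CWF19L1 (0.943). BCL2 was closest to ECHDC2 (0.992), EGR1, an immediate early transcription factor (0.979), and TARS3 (0.976). BCL2L1 had the weakest neighbours, TFDP2 (0.870), PDIA4 (0.835) and FIS1, a mitochondrial fission gene (0.822). MCL1 was closest to CMTM6 (0.973), BCL2A1 to KLHDC9 (0.981), BMF to POSTN (0.970), PMAIP1 to HLA-DPA1 (0.992) and CD2 (0.992), BAX to EML3 (0.935) and BAK1 to ARFGAP2 (0.949). CD2 and PMAIP1 share a low level in HuT-78.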

How the data were processed

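Total RNA of each sample was labelled with biotin and hybridised to 1 Affymetrix U133 Plus 2.0 array, 56 arrays in all. The labels put 4 arrays in each of 14 groups of line, day and treatment. The deposited values are signal intensity on a linear scale made with MAS5, per the submitters' processing notes; the version, other settings and genome build are not given in the sources used here. The mean after trimming 2% at each end was 500.1 in every array, which shows a common scaling. Medians ran from 56.4 to 91.7 and upper quartiles from 380.2 to 465.7, and the upper quartile was higher with cobomarsen without overlap in HuT-102 at day 8 and in MJ on both days. The 3'/5' ratio of GAPDH, a sign of RNA quality, was higher with cobomarsen without overlap in MJ at day 8 (0.9297 against 0.9107) and overlapped in the other 6 comparisons; its part in the results was not tested. The lowest correlation of an array with others of its group was 0.957 to 0.976.

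The array holds 54675 probe sets, of which 41091 carry 1 gene symbol only. Several symbols are given for 1801 and none for 11721, and 62 are controls. Each of the 41091 was fitted on its own as log2(signal + 16) with limma 3.58.1 in R 4.3.3, as 14 group means in 1 model (42 residual degrees of freedom, median prior 8.54 from an intensity trend). The median of all values, log2 6.49 or a signal of 74.0, was the floor: a probe set was tested where its mean in the groups concerned lay at or above it. The p-values are two-sided and were adjusted by Benjamini and Hochberg's method across the probe sets tested in a comparison, with a threshold of 0.05. Where a named group lies under that median, signals are given in place of a log2 change. The treated and untreated arrays of each line and day were compared, then differences of that effect between days and between lines (each pair, and an F-test), untreated day 8 against day 4, and untreated levels between lines. The fit was first tested on simulated data.

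The naming rule allowed all member probe sets, up to 3 called genes with the largest change per pathway list and comparison, and the 3 genes most like each member by Pearson correlation. Values of single arrays are given for calls of at least 1.5-fold and some others. The members, lists and tests were chosen with earlier results of these data known. Alternatives were other added constants, filters, quantile normalization, no trend, only the arrays of the lines compared, 1 probe set a gene, leaving out each array and, added after seeing the data, pairs of arrays as a block. Fits without HuT-78, or with its cobomarsen array 1 as the only treated array of that line, were added then too. The number of arrays limits the precision. Sequences come from RefSeq tables on GRCh38.p14: a promoter matched 9 of 10 listed genes and gene coordinates matched the 9 genes with values. Tables and drawings were made with Matplotlib 3.10.9, SciPy 1.17.1, NumPy 2.4.6 and pandas 2.3.3 under Python 3.11.15.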

Additional observations from a re-analysis of the deposited data

Results flagged for a closer look

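In 4 of 126 groups of a lead probe set, 1 array stood far from the other 3, where chance gives about 1 in 20. BCL2A1 in cobomarsen array 3 of MJ at day 4 read 739.5, against 964 to 996.7 in the others. BCL2L1 in cobomarsen array 1 of MJ at day 4 read 4552, against 5465 to 5644. BCL2L11 in untreated array 1 of HuT-102 at day 4 read 620.4, against 563.8 to 566.8, and BMF in untreated array 1 of MJ at day 4 read 152.4, against 9.876 to 25.93.

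The effect of cobomarsen differed between lines in limma's F-test for the lead probe sets of several members, given here as the range of the log2 change over lines. At day 4 it was 0.58 for BCL2 (adjusted p = 0.0172), 0.87 for BCL2L1 (9.12e-05), 0.76 for BCL2L11 (0.0117), 0.24 for MCL1 (0.0338) and 0.41 for PMAIP1 (0.0382). At day 8 it was 0.96 for BCL2 (limma adjusted p = 1.02e-05), 1.13 for BCL2L1 (6.79e-07), 2.09 for BCL2L11 (2.07e-11), 0.55 for MCL1 (5.24e-07), 0.73 for PMAIP1 (1.49e-05) and 0.59 for BAK1 (0.00136). BCL2A1 and BMF lay under the median of all values in some lines, so the range covers the other lines and the p is that of the pair at its ends. BCL2A1 in HuT-102 minus MJ was 1.17 at day 4 (limma adjusted p = 0.0114) and 1.02 at day 8 (0.0151), and BMF in HuT-102 minus MY-LA was 2.41 at day 8 (0.000258). Between days the effect differed by 0.92 for BCL2L11 in HuT-102 (limma adjusted p = 0.0072) and by -0.23 for MCL1 in MY-LA (0.044).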

How the results depend on the processing

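No called result of a lead probe set changed sign under an alternative in which it was tested. Other probe sets were not checked for this, and results of the F-tests, given as a range, have no sign that could change. Of the 58 lead results that passed, 19 lost the call without at least 1 array (65 of 840 fits), and the 86 that did not pass gained one in 5 of 960 fits. Counts of called member probe sets moved by over 1.5 times as follows, and the cause was not tested except where fewer probe sets were tested. With 1 probe set a gene, fewer were tested, and all 58 lead results that passed kept their call. In HuT-102 5 of 9 and 8 of 9 were called at days 4 and 8 (23% and 40.1% of all probe sets). In MY-LA 4 of 8 were called at day 4 (26.3%). The day difference gave 1 of 9 in HuT-102 (7.2%) and 1 of 8 in MY-LA (17%). Untreated days in HuT-102 gave 2 of 9 (8.7%). The F-tests on effects at day 4, day 8 and levels gave 6, 8 and 9 of 9 (27.2%, 64.7% and 91%). On only the arrays of the lines compared, 6 were called in MJ at day 8 (36.1% of all probe sets), 0 in HuT-78 (2 at an unadjusted p under 0.05, and 0.0143% of all), 9, 3 and 2 for the day differences of HuT-102, MJ and MY-LA (6.79%, 2.38% and 14.6% of all), and 1 for untreated days in MY-LA (10.2% of all). Quantile normalization gave 7 for untreated days in HuT-102 (8.32% of all). It, log2(signal + 64) and the filter at the 75th percentile each gave 1 for the MJ day difference (1.16%, 1.23% and 1.45% of all). That filter gave 3 for the MY-LA day difference (23.3%) and 1 for untreated days in MY-LA (17.6%). In the F-tests it gave 8, 11 and 15 (35%, 77.2% and 95.8%). Without a filter 2 passed for the MY-LA day difference (6.16%) and 9 in the day 4 F-test (11.1%), which also gave 9 without a trend (19.9%). Leaving out 1 array gave 0 to 2 in HuT-78, 1 to 5 for untreated days in HuT-102, 2 to 5 for the MY-LA day difference, 1 to 2 for untreated days in MY-LA and 8 to 14 in the day 4 F-test. Chosen after seeing the data, cobomarsen array 1 of HuT-78 alone, assumed to vary like other groups, gave 0 of 25 (1 at an unadjusted p under 0.05). The titles number untreated and treated arrays alternately in HuT-102, MJ and HuT-78, and nothing in the labels says that neighbours share a culture. Deviations from the group means of such neighbours had correlations of -0.0894 to 0.272 over 21997 probe sets, above 0.1 in 3 of 20 pairs. With these pairs as a replicate block, chosen after seeing the data, 12 and 19 member probe sets passed in HuT-102 (19.8% and 36.4% of all). In MJ 6 and 2 passed (23.9% and 29.2%) and in HuT-78 1 did (17.4%). For the day differences of HuT-102 and MJ the counts were 5 and 0 (5.34% and 0.735%). BCL2A1 in MJ at day 8 lost its call in this fit (limma adjusted p = 0.0648), and the day difference of BCL2L1 in HuT-102 gained a call.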
